A study of Homo sapiens with 3 samples.

Results

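The p53 transcription factor is held low in unstressed cells by MDM2, a ubiquitin ligase that marks it for destruction and is itself encoded by a p53 target gene. When DNA damage, nucleolar stress or other signals stabilise p53, it binds response elements near its targets, and their products stop the cell cycle, repair DNA, adjust metabolism or start apoptosis. Several of these targets are also switched on by other stress factors, so a single target is no readout of p53 alone. The genes described here are 9 classical p53 targets: CDKN1A, MDM2, GDF15, SESN1, TP53I3, FAS, TNFRSF10B, ZMAT3 and BTG2. They were chosen by name, and each matched 1 row among the 50868 genes of the deposited table.

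RNA was sequenced from AGS, a line grown from a human gastric adenocarcinoma and generally described as carrying wild-type p53, whose sequence was not examined here. Cells were kept for 48 h with DMSO as the vehicle, with 12 µM SFA or with 18 µM SFE, and the sources used here do not say what these code names stand for. Each condition has 1 library, so no difference below can be set against the spread between cultures, no test between conditions was possible, and all intervals cover counting error only. The doses of the compounds differ, so their values are given side by side. In RNA from a whole culture, fewer cells expressing a gene and less RNA of it per cell cannot be told apart.

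Total counts came to 18767232 for the DMSO library, 13639844 for SFA and 13644676 for SFE. Sets of 3 values below are in the order DMSO, SFA and SFE, and pairs of folds, ratios or medians in the order SFA and SFE. Of 8 gastric epithelial markers, the keratins KRT8 and KRT18 reached 1 FPKM (counts per kilobase, relative to library size), and EPCAM, KRT19, CDH1, CLDN18 and MUC5AC did not. TFF1, a gastric peptide gene, was at 0 counts in all 3 libraries. The summed FPKM of this list was 951 with DMSO, 516 with SFA and 526 with SFE. Of 6 fibroblast markers, COL1A1, COL3A1 and PDGFRB reached 1 FPKM, with a summed level of the list of 26.6, 10.3 and 12.7 FPKM, while COL1A2, DCN and LUM stayed below. No leukocyte, endothelial, erythroid or hepatocyte marker passed 0.507 FPKM. The identity of the line was not checked further, and its described p53 status rests on the line being AGS, as the labels name it. The part of these marker differences in the values of the p53 targets was not tested.

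p53 binds DNA as a tetramer that reads a response element made of paired 10-base units. To show where such letters lie near these genes, RefSeq promoters on GRCh38.p14, each running from 250 bases before to 50 bases after an annotated start, were searched on both strands for the 10-base unit of the p53 response element, for the ATF4-C/EBP element TGATGNAAN and for the antioxidant response element TGACNNNGC. A total of 16 promoters matched 8 of the 9 genes, and TNFRSF10B had none in the table. The p53 unit was present in 2 of these 16, and in 6.63% of all 35116 promoters. These were one of the alternative promoters of FAS and one of SESN1. The pattern of the unit is its own reverse complement, so any match on one strand is also a match on the other. The 30-base windows that hold these units are shown in the direction of the gene, with the unit in capitals.
FAS: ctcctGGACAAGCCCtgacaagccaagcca
SESN1: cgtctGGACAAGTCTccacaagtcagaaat
The FAS window lies at chr10:88991304-88991333 on the plus strand. Of 13 FAS transcripts that span it in GENCODE 29, it overlaps an exon of 2 and coding sequence of 0. The SESN1 window lies at chr6:109009013-109009042 on the minus strand, inside an intron of the 2 transcripts that span it. The antioxidant response element was found in 6 of the 16 promoters, in FAS, MDM2, SESN1 and TP53I3, and in 13.3% of all promoters. The FAS match and the MDM2 match each lie in overlapping promoters, so the 6 count the same bases more than once. The 30-base window that holds the MDM2 match lies in an intron at chr12:68808894-68808923 and overlaps no exact match to the p53 unit. The 9 matching bases are in capitals.
MDM2: caggtTGACTCAGCttttcctcttgagctg
The ATF4-C/EBP element was in 0 of the 16 promoters and in 3.61% of all promoters. None of these 3 sets of letters was found in the promoters of GDF15, BTG2 or CDKN1A. A match describes letters in this window only, and sites elsewhere in these genes were not searched. Only exact matches were counted, so a site with mismatched letters would be missed, and no match does not mean no site.

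In DMSO-treated cells the targets spanned a wide range of levels. The deposited FPKM divides by a length that was 1.24 to 2.05 times the exonic length of these 9 genes in GENCODE 29, so levels between genes are compared on FPKM recomputed with exonic length. CDKN1A, which encodes the cyclin-dependent kinase inhibitor p21, stood highest at 39.3 FPKM (95% Poisson counting interval 37.7 to 41.0). TNFRSF10B, a death receptor for TRAIL, followed at 20.6 FPKM (19.7 to 21.5). BTG2, an antiproliferative adaptor of the deadenylase complex that shortens mRNA tails, stood at 16.6 FPKM (15.5 to 17.8). TP53I3, a quinone oxidoreductase, stood at 10.2 FPKM (9.24 to 11.2). These 4 genes were separated from each other by more than counting error. GDF15, a secreted stress cytokine of the TGF-beta superfamily, at 4.49 FPKM (3.85 to 5.21), was not separated from SESN1, a stress-induced inhibitor of mTORC1, at 3.69 FPKM (3.32 to 4.10). At the low end MDM2 at 2.54 FPKM and ZMAT3, an RNA-binding zinc finger protein, at 2.13 FPKM had overlapping intervals, as did ZMAT3 and the death receptor gene FAS at 1.88 FPKM. With SFA and with SFE, CDKN1A and TNFRSF10B kept the highest levels, TP53I3 and GDF15 came next with overlapping intervals, and BTG2 came below them. With SFE the interval of BTG2 also overlapped that of GDF15.

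**Figure D1:**
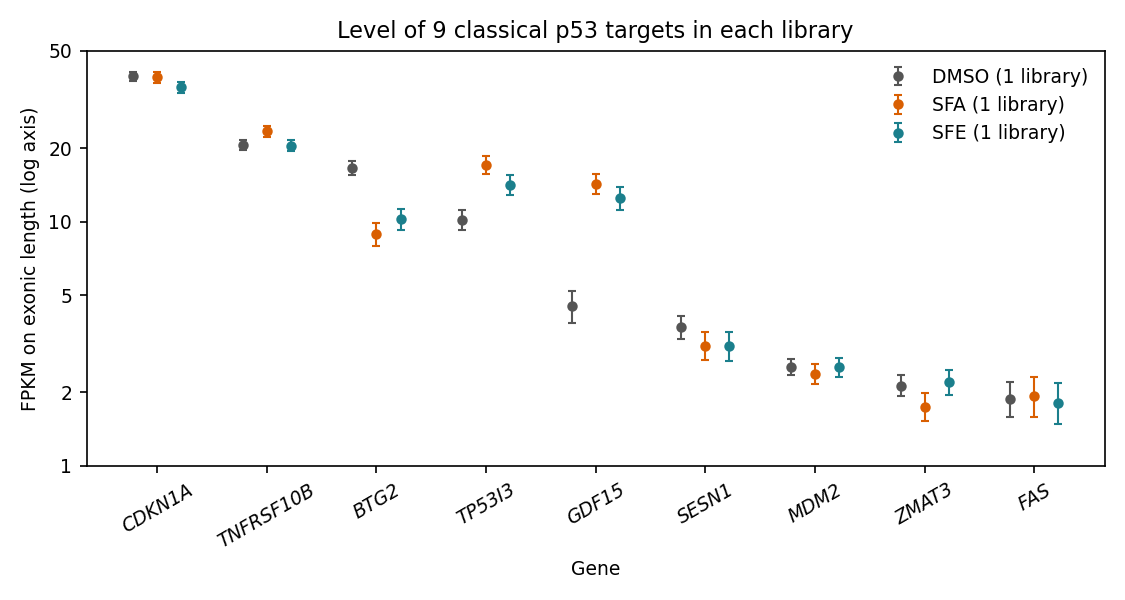
Level of each of the 9 genes (FPKM on exonic length, log axis) in the DMSO, SFA and SFE libraries, 1 point per library, with bars for the 95% Poisson counting interval. CDKN1A lies highest in all 3 libraries, GDF15 lies higher and BTG2 lower in both treated libraries than with DMSO, and FAS lies between 1.81 and 1.93 FPKM.

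The comparison of each compound with DMSO asks how expression of these targets differed after treatment. GDF15 was at least 2-fold higher with both compounds, BTG2 was lower and TP53I3 higher by less than 2-fold, and the levels of CDKN1A, MDM2, SESN1, FAS, TNFRSF10B and ZMAT3 lay within 1.22-fold of DMSO. Calls of higher or lower required 2-fold or more on log2(FPKM + 1), which shrinks the folds of weakly expressed genes, and 1 FPKM or more in some library. Of the 9 targets 8 passed this filter, and FAS, at 0.934, 0.959 and 0.899 deposited FPKM, did not. With SFA, 1 of the 8 was higher and 0 lower, where 1.36% of all 11680 genes were higher, 1.34% lower and 2.71% either. With SFE, 1 was higher and 0 lower, where 1.37% of all genes were higher, 1.01% lower and 2.38% either. The median difference of the 8 genes was −0.03 with SFA (0.01 under upper-quartile scaling) and −0.01 with SFE, beside 0.01 and 0.03 for all 11680 genes. Ratios below are count shares relative to DMSO, with exact conditional binomial intervals. On that measure 54.4% of all genes with SFA and 51.7% with SFE had an interval that excluded 1, as had 6 and 5 of the 8 targets, so an interval clear of 1 does not set a target apart from other genes.

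**Figure D2:**
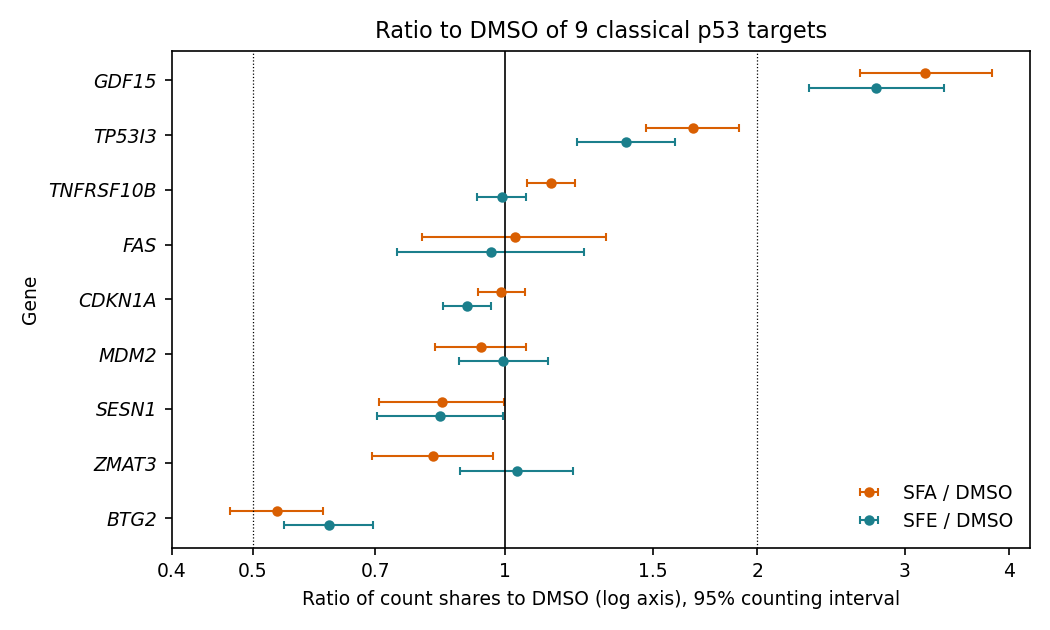
Ratio of count shares to DMSO (log axis) for each of the 9 genes with SFA and with SFE, 1 library each, with 95% counting intervals, a solid line at 1 and dotted lines at 0.5 and 2. GDF15 lies above 2 with both compounds, TP53I3 between 1 and 2, BTG2 between 0.5 and 1, and the other 6 genes lie near 1.

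GDF15 (ENSG00000130513, chromosome 19, 18374731 to 18389176, plus strand) overlaps no other listed gene. Its counts were 176 (DMSO), 406 (SFA) and 355 (SFE), although the DMSO library is the deepest. Its deposited level was 2.72, 8.62 and 7.54 FPKM. Both treated libraries stood above DMSO, at 3.17-fold with SFA (2.65 to 3.81) and 2.77-fold with SFE (2.31 to 3.34). On log2(FPKM + 1) the differences were 1.37 and 1.2, which placed GDF15 as the 65th highest of 11680 genes with SFA and the 84th highest with SFE. The 3 genes nearest to GDF15 in this pair of differences, among 4937 protein-coding genes at 5 FPKM or more in the highest library, were SNRPD2, DUSP4 and SQSTM1. Their Euclidean distances were 0.066, 0.098 and 0.099 over the differences of 2 treated libraries from 1 DMSO library. DUSP4, a phosphatase of MAP kinases, stood at 1.98, 6.21 and 5.76 FPKM. The autophagy receptor gene SQSTM1 was measured at 32.2, 87.0 and 70.5 FPKM, and SNRPD2, a core protein of spliceosomal particles, at 17.3, 46.0 and 43.0 FPKM. These 2 genes overlap others, so their values are uncertain.

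TP53I3 (ENSG00000115129, chromosome 2, 24077433 to 24085861, minus strand) had 441, 537 and 447 counts, which correspond to 5.15, 8.63 and 7.18 FPKM. Both treated libraries stood above DMSO, at 1.68-fold with SFA (1.47 to 1.90) and 1.39-fold with SFE (1.22 to 1.59). It ranked as the 511th highest gene with SFA and the 1205th with SFE. The gene lies within FAM228B on the opposite strand, which had 7, 7 and 4 counts.

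BTG2 (ENSG00000159388, chromosome 1, 203305491 to 203309602, plus strand) went the other way and overlaps no listed gene. Its counts were 860, 334 and 385, and its levels 11.5, 6.14 and 7.08 FPKM. It was 1.87-fold lower with SFA (1.65 to 2.13) and 1.62-fold lower with SFE (1.44 to 1.84). BTG2 was the 264th lowest of 11680 genes with SFA and the 342nd lowest with SFE. Past a 1.5-fold limit on log2(FPKM + 1), 3 of the 8 targets were counted with SFA (GDF15, TP53I3 and BTG2) and 2 with SFE (GDF15 and BTG2), where 10.0% and 8.82% of all genes passed.

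**Figure D3:**
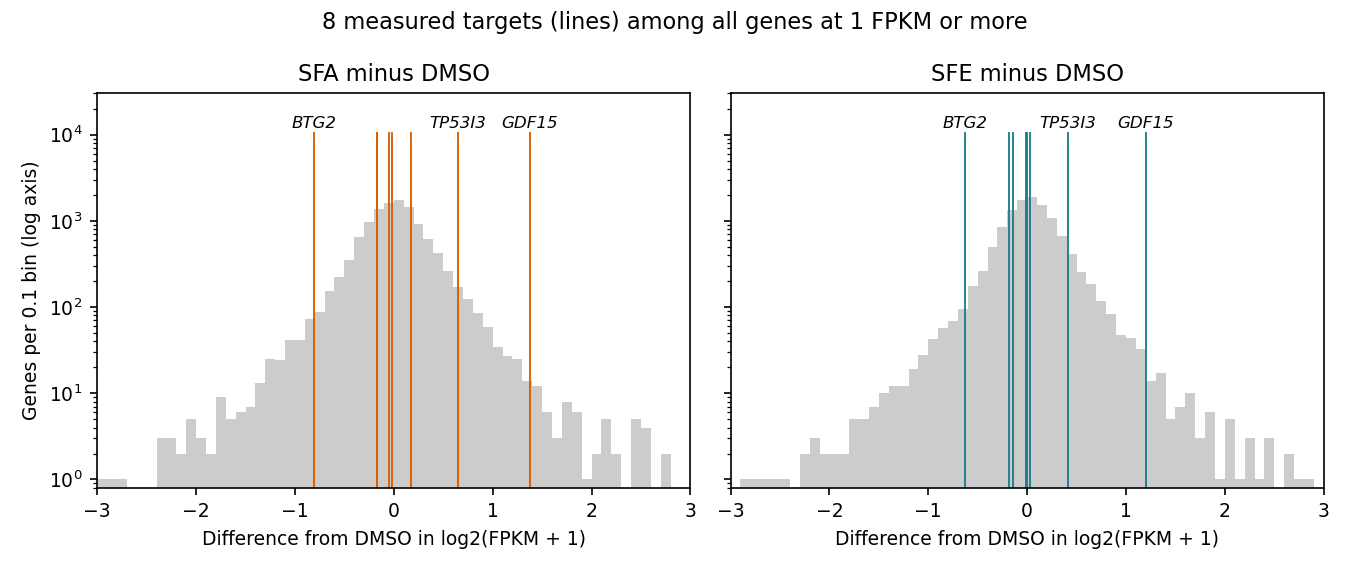
Number of genes (log axis) in each 0.1-wide bin of the difference from DMSO in log2(FPKM + 1), for SFA and SFE, with a coloured line for each of the 8 measured targets; 9 genes with SFA and 7 with SFE lie beyond the axis. GDF15 lies in the sparse upper flank and BTG2 in the lower flank of both distributions, and the unlabelled targets lie near 0.

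The p21 gene CDKN1A (ENSG00000124762, chromosome 6, 36676460 to 36687339, plus strand) is the standard p53-driven arrest gene. It had 2250, 1619 and 1473 counts, and its FPKM was 19.2, 19.0 and 17.3. Its ratio to DMSO was 0.990 with SFA (0.928 to 1.06) and 0.900 with SFE (0.843 to 0.962). MDM2 (ENSG00000135679, chromosome 12, 68808172 to 68850686, plus strand), the negative regulator and target of p53, had 634, 431 and 459 counts. Its deposited level was 1.26, 1.18 and 1.25 FPKM, with ratios of 0.935 with SFA (0.826 to 1.06) and 0.996 with SFE (0.881 to 1.12). Over 8490 bases MDM2 shares its locus with CPM, a carboxypeptidase gene on the opposite strand with 986, 356 and 526 counts. Whether counting used strand is not stated in the labels, so the MDM2 value is uncertain.

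The death receptor genes differed little from DMSO. TNFRSF10B (ENSG00000120889, chromosome 8, 23020133 to 23069179, minus strand) had 1995, 1646 and 1437 counts, or 13.2, 14.9 and 13 FPKM. Its ratio was 1.14 with SFA (1.06 to 1.21) and 0.991 with SFE (0.925 to 1.06), so only the SFA library stood apart from DMSO beyond counting error. FAS (ENSG00000026103, chromosome 10, 88990531 to 89015785, plus strand) had 150, 112 and 105 counts, with ratios of 1.03 (0.797 to 1.32) and 0.963 (0.743 to 1.24). FAS differences inside these intervals were not detectable at this depth. FAS overlaps the actin gene ACTA2 by 860 bases and TNFRSF10B overlaps RHOBTB2 by 67 bases, each on the opposite strand, so their values are uncertain.

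SESN1 (ENSG00000080546, chromosome 6, 108986437 to 109094819, minus strand) had 355, 217 and 216 counts, or 2.54, 2.14 and 2.13 FPKM. Its ratio was 0.841 with SFA (0.707 to 0.999) and 0.837 with SFE (0.703 to 0.994), just below DMSO in both. SESN1 overlaps RP11-787I22.3, with 20, 10 and 4 counts, by 644 bases on the opposite strand, so the SESN1 value is uncertain. ZMAT3 (ENSG00000172667, chromosome 3, 179017223 to 179072279, minus strand) had 386, 230 and 290 counts, or 1.72, 1.41 and 1.78 FPKM. It stood below DMSO with SFA, at a ratio of 0.820 (0.693 to 0.968), and at 1.03 with SFE (0.884 to 1.21). With SFE its level was therefore within counting error of DMSO.

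Other p53 targets were taken from lists by role. Of 81 such genes outside the 9, 62 reached 1 FPKM. With SFA 4 of the 62 were at least 2-fold higher and 0 lower, and with SFE 3 were higher and 0 lower, where 1.36% and 1.37% of all genes were higher. The genes were SCO2, CSF1 and BLCAP with both compounds and FOSL1 with SFA, which with SFE lay just under the limit at 0.96. The median difference of the 62 was 0.07 with SFA and 0.05 with SFE, close to the medians of all genes given above. Single-gene ranges ran from −0.88 to 2.16 with SFA and from −0.93 to 2.46 with SFE.

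Among 14 genes of cell cycle arrest, CDKN1A and BTG2 included, 11 reached 1 FPKM. In either library 0 were 2-fold from DMSO on log2(FPKM + 1), beside 2.71% of all genes with SFA and 2.38% with SFE. At such shares, 0 in a list this short does not set it apart from other genes. The medians of −0.01 and −0.14 were the values of CDKN1A itself. GADD45A, a damage-induced inhibitor of the G2 to M transition, had 94, 95 and 106 counts, a ratio of 1.39 with SFA (1.03 to 1.87) and 1.55 with SFE (1.16 to 2.07). CCNG1, the cyclin G1 gene and a classical p53 target that acts with MDM2, had 1309, 459 and 438 counts. It was 2.07-fold lower with SFA (1.86 to 2.31) and 2.17-fold lower with SFE (1.95 to 2.43), and on log2(FPKM + 1) it missed the 2-fold limit, at −0.88 and −0.93. CCNG1 overlaps no listed gene.

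Of 20 apoptosis genes, FAS, TNFRSF10B and TP53I3 included, 15 reached 1 FPKM. With each compound 1 was at least 2-fold higher and 0 were lower. Among all genes 1.36% with SFA and 1.37% with SFE were that much higher. The medians of the list were 0.14 and 0.02. BAX, which permeabilises the outer mitochondrial membrane, stood at 4.61, 8.55 and 7.60 FPKM, 1.86-fold (1.65 to 2.09) and 1.65-fold (1.46 to 1.86) above DMSO. PMAIP1, which encodes NOXA, had 89, 102 and 107 counts, 1.58-fold (1.17 to 2.12) and 1.65-fold (1.24 to 2.22) above DMSO. BBC3, which encodes PUMA, had 39, 43 and 53 counts and did not reach 1 FPKM. Its ratio was 1.52 with SFA (0.960 to 2.40) and 1.87 with SFE (1.21 to 2.90). DRAM1, a lysosomal regulator of autophagy, was 1.41-fold (1.29 to 1.55) and 1.56-fold (1.42 to 1.71) lower. BLCAP, counted in this list, had 158, 1181 and 1499 counts and overlaps NNAT, which had 46, 48 and 54, so its value is uncertain.

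The FAS and TRAIL pathway, from ligands and receptors to caspases, was measured for 10 of 16 genes, TNFRSF10B among them. FAS, also listed, was under the filter. Of the 10, 0 were at least 2-fold from DMSO on log2(FPKM + 1), beside 2.71% of all genes with SFA and 2.38% with SFE. Medians were 0.21 and 0.02. TNFSF10, which encodes the ligand TRAIL, had 184, 40 and 44 counts. It was 3.34-fold lower with SFA (2.36 to 4.83) and 3.04-fold lower with SFE (2.18 to 4.33) by count share, although its low level of 1.75 FPKM with DMSO kept it inside the limit on log2(FPKM + 1), at −0.85 and −0.80. TNFRSF10A, the second TRAIL death receptor, was 1.40-fold (1.26 to 1.55) and 1.28-fold (1.15 to 1.43) higher. BID, which links death receptors to mitochondria, was 1.63-fold (1.38 to 1.92) and 1.67-fold (1.42 to 1.96) higher. FASLG, the ligand of FAS, had 0, 1 and 0 counts.

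Feedback regulators and upstream kinases of p53 were measured for 13 of 15 genes, with 0 at least 2-fold higher and 1 lower with each compound. Among all genes 1.34% with SFA and 1.01% with SFE were that much lower. The medians of the list were −0.17 and −0.18. The gene past the limit was HIPK2, a kinase that phosphorylates p53, with 1564, 363 and 413 counts. It was 3.13-fold lower with SFA (2.79 to 3.52) and 2.75-fold lower with SFE (2.47 to 3.08). HIPK2 overlaps TBXAS1 by 728 bases on the opposite strand, which had 6, 12 and 11 counts. MDM4, the partner of MDM2, stood at 0.461, 0.588 and 0.561 FPKM, under the filter, with 348, 323 and 308 counts. By count share it was 1.28-fold (1.09 to 1.49) and 1.22-fold (1.04 to 1.42) above DMSO, and it overlaps another gene. PPM1D, a phosphatase that switches p53 signalling off and is itself a target, was 1.18-fold (0.999 to 1.39) and 1.19-fold (1.01 to 1.40) lower.

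The 9 DNA repair genes held 8 at 1 FPKM or more, with medians of −0.20 and −0.18. Of these 8, 0 were 2-fold from DMSO on log2(FPKM + 1), beside 2.71% of all genes with SFA and 2.38% with SFE. DDB2, a sensor of ultraviolet lesions, had ratios of 0.872 (0.812 to 0.935) and 0.828 (0.771 to 0.890), and XPC, its partner in nucleotide excision repair, of 0.837 (0.749 to 0.935) and 0.882 (0.791 to 0.983). RRM2B, the p53-inducible subunit of ribonucleotide reductase, had 348, 138 and 125 counts, 1.83-fold (1.5 to 2.25) and 2.02-fold (1.65 to 2.50) lower. On log2(FPKM + 1) the RRM2B differences were −0.50 and −0.57. With each compound 6 of the 8 measured repair genes stood below DMSO, 6 with SFA and 5 with SFE by an interval under 1, beside 26.8% and 22.8% of all genes by such an interval.

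In metabolism and redox control 18 of 22 genes were measured, SESN1 and TP53I3 among them. With each compound 1 was at least 2-fold higher and 0 were lower. Among all genes 1.36% with SFA and 1.37% with SFE were that much higher. The medians of the list were 0.05 and 0.06. SESN2, the relative of SESN1 that also answers ATF4, stood at 24.6, 26.3 and 25.3 FPKM, within counting error of DMSO in both libraries. SCO2, a factor for assembly of cytochrome c oxidase, had 60, 299 and 287 counts, 6.86-fold (5.18 to 9.21) and 6.58-fold (4.97 to 8.84) above DMSO. It overlaps TYMP by 688 bases on the same strand, with 350, 197 and 224 counts. SCO2 also overlaps CTA-384D8.36 by 855 bases on the opposite strand, with 518, 386 and 384 counts, so the SCO2 value is uncertain. Of 20 secreted and signalling genes 15 were measured, GDF15 among them. At least 2-fold higher were 3 with SFA and 2 with SFE, beside the same shares of all genes, and 0 were lower. The medians of this list were 0.30 and 0.11. CSF1, the macrophage growth factor, stood at 1.22, 4.80 and 4.32 FPKM, 3.94-fold (3.32 to 4.69) and 3.54-fold (2.98 to 4.23) above DMSO. FOSL1, an AP-1 subunit, had 56, 202 and 146 counts, 4.96-fold (3.67 to 6.80) and 3.59-fold (2.62 to 4.97) above DMSO. Among 7 RNA and translation genes, ZMAT3 and BTG2 included, 5 were measured, with medians of 0.13 and 0.14. Of these 5, 0 were 2-fold from DMSO, beside 2.71% of all genes with SFA and 2.38% with SFE.

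**Figure D4:**
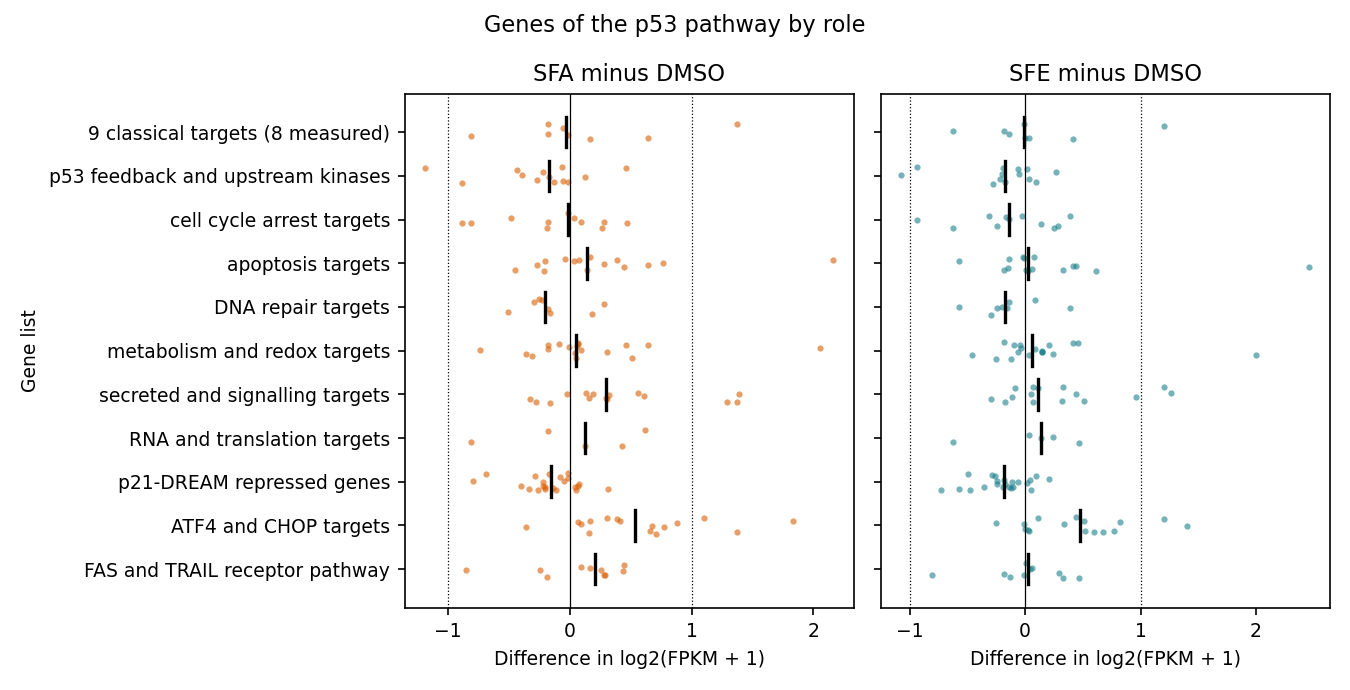
Difference from DMSO in log2(FPKM + 1) for each measured gene of the 9 classical targets and of 10 lists by role, with SFA and with SFE; each point is 1 gene, the black bar is the list's median, and dotted lines mark 2-fold. Genes can stand in several lists. Medians lie near 0 for most lists of targets, and at 0.54 and 0.48 for ATF4 and CHOP targets.

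Genes that p53 lowers through p21 and the DREAM repressor complex were listed as the counterpart of the directly activated targets. All 22 were measured, with medians of −0.15 and −0.18. On log2(FPKM + 1) 0 were 2-fold from DMSO, beside 2.71% of all genes with SFA and 2.38% with SFE. Of the 22, 17 stood below DMSO in each treated library, 14 with SFA and 16 with SFE by an interval under 1. Among all 11680 genes, 48.6% with SFA and 44.8% with SFE stood below DMSO, and 26.8% and 22.8% by such an interval. TOP2A, a DNA topoisomerase, stood at 25.4, 15.4 and 14.9 FPKM. CENPF, a kinetochore protein gene that overlaps another gene, had 891, 299 and 378 counts and was 2.17-fold (1.90 to 2.48) and 1.71-fold (1.52 to 1.94) lower by count share, or −0.80 and −0.57 on log2(FPKM + 1).

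GDF15 and TNFRSF10B are also known targets of ATF4 and CHOP, transcription factors of the integrated stress response. Of 17 genes in that list, GDF15 and TNFRSF10B included, 16 were measured, with 3 at least 2-fold higher with SFA, 2 with SFE and 0 lower. The list was chosen with earlier results of these data known, and GDF15 is part of its counts and medians. Among all 11680 genes 1.36% with SFA and 1.37% with SFE were that much higher. The medians of the list were 0.54 and 0.48, beside 0.01 and 0.03 for all genes. The genes past the limit were GDF15 itself and SLC7A11, a cystine carrier, with both compounds, and CHAC1, a glutathione-degrading enzyme, with SFA. SLC7A11 overlaps SLC7A11-AS1 by 14081 bases on the opposite strand, which had 14, 20 and 21 counts. DDIT3, which encodes CHOP, had 78, 140 and 140 counts, 2.47-fold (1.86 to 3.30) above DMSO with each compound by count share. At 0.692, 1.71 and 1.71 FPKM it stayed inside the limit on log2(FPKM + 1), at 0.68 with each. DDIT3 overlaps another gene, so its value is uncertain. ATF4 stood at 102, 127 and 102 FPKM. ATF3, a target of both pathways, stood at 1.69, 2.01 and 1.90 FPKM. The part of this programme in the GDF15 values was not tested.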

How the data were processed

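RNA-seq values of 3 libraries, 1 per group, were used. Per the labels' protocols, ribosomal RNA was removed from total RNA ahead of Illumina library construction. HISAT2 2.0.4, StringTie 1.2.3 and the hg38 build were used, per the submitters' processing notes, which as available here give no roles. The sources used here do not give the counting tool, strand setting or annotation release. The authors deposited raw counts and FPKM per gene, and the deposited FPKM uses 1 length per gene and the library's total count. Genes sharing a name were reduced to the one with the highest mean FPKM, which left out 373 rows. Differences are on log2(FPKM + 1), with a filter of 1 FPKM in at least 1 library. Ratios have 95% exact conditional binomial intervals, which cover counting error only. Reads were not counted as molecules, so duplicate reads may make even these intervals too narrow. The ratio, interval and call scripts were tested on simulated data. Named genes were all 9 targets, up to 4 per list with the largest difference, 13 fixed by name, and the 3 nearest to any target past 2-fold. Of the 54 so named, the most informative are described. Members and lists were chosen with earlier results of these data known. Alternatives covered scaling (edgeR 4.0.16 for TMM), pseudocount, filter, fold, overlapping genes and gene length. Python 3.11.15 and SciPy 1.17.1 were used.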

Additional observations from a re-analysis of the deposited data

How the results depend on the processing

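GDF15 was the target counted at 2-fold with each compound under median-ratio, upper-quartile and TMM scaling, a pseudocount of 0.1 FPKM, filters of 5 FPKM and of none, without overlapping genes, and on exonic length, the last chosen after seeing the data. With a 1.5-fold limit 3 targets were counted with SFA and 2 with SFE, and by an interval that excludes 1, 6 and 5. The median with SFA was 0.17 at a filter of 5 FPKM, which left 5 of the targets, and 0.01 under upper-quartile scaling. For the 54 named genes, under the scalings, the pseudocount and exonic length, no difference of 2-fold or more changed sign, and 5 of 540 recomputed differences did, all of them at most 0.047 in size as first computed. Calls of single genes at 2-fold did not change under the scalings. A pseudocount of 0.1 FPKM took 9 differences past 2-fold, CCNG1 at −1.03 with SFA and −1.10 with SFE, TNFSF10 at −1.57 and −1.45, DDIT3 at 1.19 with both, CENPF at −1.07 with SFA, and FOSL1 at 1.68 and CHAC1 at 1.13 with SFE. Exonic length took 5 past it, all of them in CCNG1, FOSL1, TNFSF10 and DDIT3. That pseudocount moved 24 of 108 differences by more than counting error. No scaling moved the median of all genes by more than 0.1. No paired analysis was possible because each group has 1 library, and no replicate could be left out. Depth limits the genes with few counts, such as BBC3 with 39 to 53 per library.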

Other observations

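The length behind the deposited FPKM was the sum of the lengths of all distinct exons of a gene, with bases shared by different exon versions counted again, for 84.5% of 15114 genes whose transcripts overlap each other in GENCODE 29 (within 0.1%). It was the exonic length for 0.668% of them. Over 21872 genes the deposited length was a median of 1.30 times the exonic length, so genes with many annotated exon versions have a lower deposited FPKM for the same count. Among the p53 targets the factor was 1.24 for ZMAT3, 1.65 for GDF15, 2.02 for MDM2 and 2.05 for CDKN1A. With DMSO, ZMAT3 stood above MDM2 by deposited FPKM, at 1.72 against 1.26, and below it on exonic length, at 2.13 against 2.54 with overlapping intervals. FAS was below 1 FPKM in all libraries by deposited FPKM, and above it on exonic length. Ratios between libraries do not contain this length.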
